A study of Mus musculus with 10 samples.

Results

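Relapse line M2 was compared with epithelial line E across all genes on the array. The comparison takes in 4 of the 10 arrays of the series, the 2 of M2 and the 2 of E, chosen by their titles. E is a cell line from a mammary adenocarcinoma of a female mouse of strain FVB/N-TgN(MMTVneu)202Mul, in which the neu oncogene, the rat form of Erbb2, is driven in the mammary epithelium by the promoter of mouse mammary tumour virus. M2 is a mesenchymal line from a tumour that came back in a female FVB/N mouse given E cells. Whether all cells of M2 descend from E was not tested here. Lines M1, M3 and M4 come from other such relapses and enter where a difference between M2 and them is tested. No treatment, age or passage number is given in the sources used here, nor whether M2 is a clone. Culture was the same for both lines, in RPMI with 10% serum up to 80% confluence, and cRNA made from total RNA was labelled and hybridized. M2 is a single line from a single tumour and E a single epithelial line, and no label states that replicate arrays stem from different cultures, so p-values measure only the spread between these arrays, which may be technical.

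Epithelial cells are held together by adherens junctions, tight junctions and desmosomes. Regulators of epithelial identity include factors such as Grhl2 and Elf5 and the splicing regulators Esrp1 and Esrp2. In an epithelial-mesenchymal transition (EMT), factors of the Snai, Zeb, Twist and Prrx families are known to repress junction genes, often through E-box sequences in their promoters, while cells gain N-cadherin, collagens and proteases that remodel matrix. In mammary tumours such a change is known from recurrent and claudin-low disease.

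A signal is the deposited intensity of a probe set on a linear scale. Changes are differences of log2(signal + 32), M2 minus E, from a limma fit to all 10 arrays, and a gene was called, written here as rose or fell, at a Benjamini-Hochberg adjusted p under 0.05 and a change of at least 2-fold. Of 14840 genes tested, 3022 were called (20.4%), 1274 higher in M2 (8.58%) and 1748 lower (11.8%). Of all genes that changed at least 2-fold, 0 failed the adjusted p, whose highest value among called genes was 0.000423 (limma), so the fold limit decided the calls in M2. Without the fold limit 7521 of the 14840 genes passed the adjusted p (2688 higher, 4833 lower). Counts of called list members below are to be read beside the 8.58% of all genes called higher and 11.8% called lower. For counts at an unadjusted p under 0.05 the share over all genes was not computed. It is at least as high as that at the adjusted p. The middle gene changed by -0.14 on the deposited scale. After quantile normalization, which forces the same distribution on every array, it changed by 0.02, and 2792 genes were called (18.8%), 1493 higher (10.1%) and 1299 lower (8.75%). Both scalings together called 1268 genes higher and 1299 lower, and 0 in opposite directions.

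Brightness differed between the arrays. The trimmed mean signal was 299 and 264 on the E arrays and 272 and 214 on the M2 arrays, so M2 replicate 2 was the dimmest of the 4, and the 9 hybridization controls were brighter on E as well. The 2 arrays of E, and likewise those of M2, correlated at 0.993 across genes. Actb had a ratio of 3' to 5' signal of 1.24 and 1.22 on the E arrays and 1.22 and 1.25 on the M2 arrays. E held the epithelial markers Cdh1 and Epcam at high signal and M2 the mesenchymal markers Cdh2, Zeb1 and Axl, as their labels say, although Vim was high in both and Krt8 did not separate them.

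**Figure D1:**
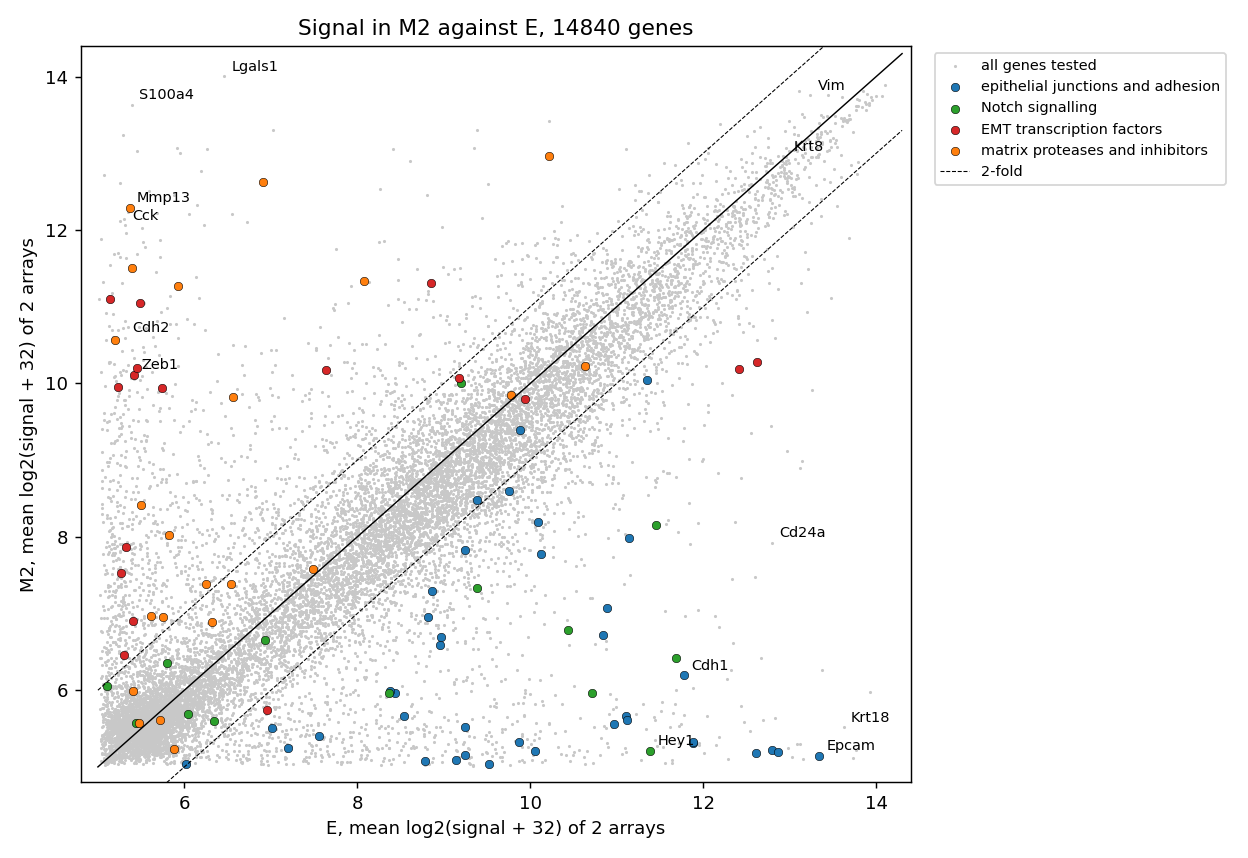
Mean log2(signal + 32) of the 2 M2 arrays against the 2 E arrays for 14840 genes, with 4 gene lists in colour, the line of equal signal and dashed lines at a 2-fold difference. Most junction genes lie below the lower dashed line, EMT factors and matrix proteases mostly above the upper one, and Vim and Krt8 between them.

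The 12 largest losses ran from genes of secretion and defence to genes of the junction. Wfdc18, a whey acidic protein family member, had signals of 13659 and 13596 in E and of 1.8 and 3.3 in M2, a change of -8.63 ± 0.17 (SE). Pglyrp1, a peptidoglycan-binding defence protein, stood at 13746 and 14067 in E and at 3.8 and 6.6 in M2 (-8.55 ± 0.18). The others were Epcam (-8.20), Krt18 (-8.11), the sodium pump subunit gene Atp1b1 (-8.05, 4 of its 5 probe sets), the casein gene Csn3 (-7.96), Cnmd (-7.90), the sialyltransferase gene St8sia6 (-7.82), Cd177 (-7.79), the gut-type glutathione peroxidase gene Gpx2 (-7.73), Spint2 (-7.68) and Cldn3 (-7.57). In M2 each had a mean signal of 30.8 or less, so these genes went from among the brightest on the array to its background.

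The 12 largest rises were led by S100a4, which encodes a calcium-binding protein, with signals of 11.2 and 8.7 in E and of 12697 and 12637 in M2 (8.24 ± 0.11). Igfbp4, which binds insulin-like growth factors outside the cell, rose from 13.7 and 1.3 to 9861 and 9365 (7.95 ± 0.12), on all 6 of its probe sets. Ptgs2, the inducible cyclooxygenase, rose from 2.8 and 0.4 to 7084 and 6356 (7.65 ± 0.12). They were followed by the matrix proteoglycan decorin (Dcn, 7.58, 1 of its 2 probe sets), galectin-1 (Lgals1, 7.55), the collagen cross-linking oxidase Lox (7.36), caveolin-1 (Cav1, 7.15), the secreted protease Htra1 (7.06), Mmp13 (6.92), Gpnmb (6.92), the aldehyde dehydrogenase gene Aldh3a1 (6.89) and Crabp2 (6.86), which carries retinoic acid. E had at most a mean signal of 56.1 for any of the 12. Sizes therefore depend on the pseudocount of 32 wherever 1 side lies near background, which is common here: 800 of the 1274 genes that rose had a mean signal under 64 in E, and 714 of the 1748 that fell had one under 64 in M2.

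By difference in signal rather than by fold, other genes also stood out. The lysosomal protease gene Ctsl went from 1185 and 1123 to 10943 and 10875 (3.21 ± 0.09, 1 of its 2 probe sets) and the antiprotease gene Slpi from 705 and 575 to 10270 and 9925 (3.92 ± 0.10). From lower levels Pcolce, an enhancer of procollagen processing, went from 110 and 87.4 to between 9462 and 10767 in M2 (6.28). Saa3, an acute-phase apolipoprotein, went from 52.3 and 38.1 to between 7736 and 9351 (6.79). Among losses of this kind were Dusp6, a phosphatase that acts on ERK and is itself switched on by ERK signalling, from 11441 and 11365 to 2473 and 1937 (-2.36 ± 0.13), the detoxifying enzyme gene Mgst1 (-1.79) and the ion transport regulator gene Fxyd3 (-7.12). Dusp6 thus kept a clear signal in M2 at a lower level, unlike the genes that went to background.

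**Figure D2:**
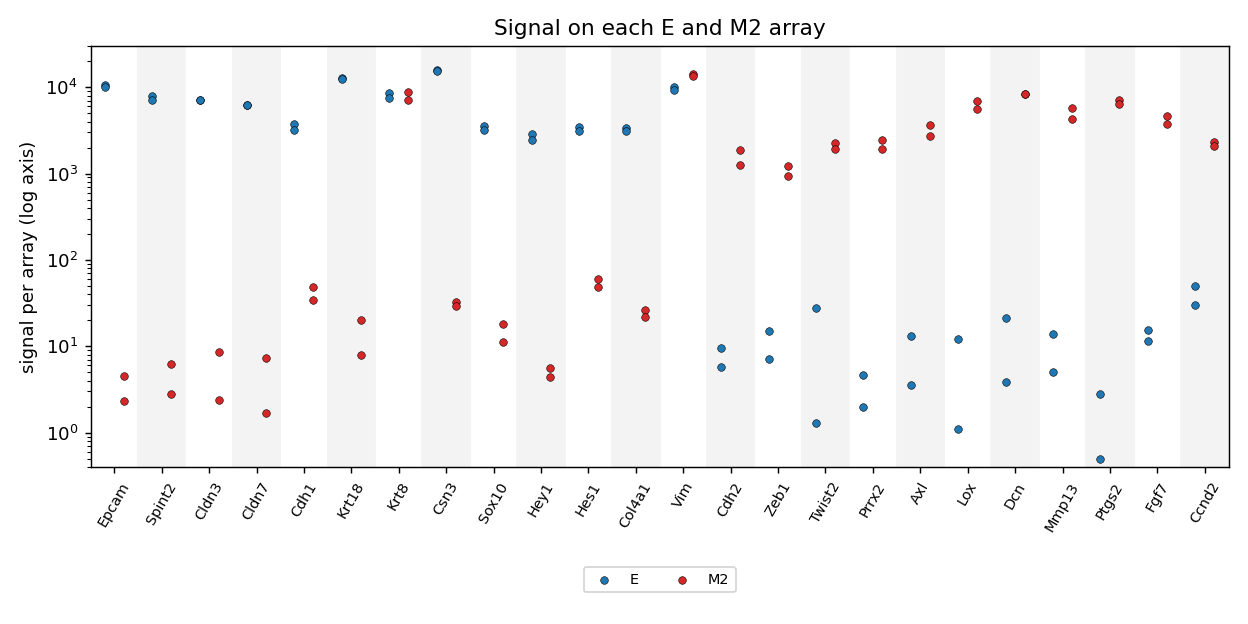
Signal on each of the 2 E and 2 M2 arrays, on a log axis, for 24 genes of the text. The arrays of a line lie close together next to the distance between the lines, except for Krt8, where they overlap, and Vim, where both lines are bright; values under 0.5 are drawn at 0.5.

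Junction and adhesion genes fell almost as a whole. Of 41 listed genes 38 were tested, 35 fell and 0 rose, also at an unadjusted p under 0.05, with a median change of -3.44 against -0.14 for all genes, and all 38 were lower at an unadjusted p under 0.05 (limma). Epcam, an adhesion molecule of epithelial surfaces, went from 10675 and 10046 to 2.3 and 4.5 (-8.20 ± 0.17). Cdh1, which encodes E-cadherin, kept a trace, with 3788 and 3215 in E and 49.2 and 34.2 in M2 (-5.59 ± 0.18). Both surface molecules thus fell from clear signals in E. The arrays of the lines did not overlap, but this held for all 1274 genes that rose and all 1748 that fell. It therefore adds nothing to a call.

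Of 12 tight junction genes 11 fell, among them the claudin genes Cldn3 (-7.57 ± 0.19), Cldn7 (-7.42 ± 0.18) and Cldn4 (-4.09), the occludin family genes Ocln (-4.85), Marveld3 (-4.54) and Marveld2 (-4.05), and the scaffold gene Tjp3 (-3.72). The scaffold Tjp1 fell less, from a mean of 2583 to 1039 (-1.30), and Cldn1 fell from 577 to 199 (-1.42). Cldn8 had signals near background in both lines (33.0 and 0.95). Tight junction genes thus differed in depth of loss, from under 3-fold for Tjp1 and Cldn1 to mean signals below 10 in M2 for Cldn3, Cldn4, Cldn7, Ocln, Marveld2 and Marveld3.

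All 9 desmosome genes fell. The plaque gene Dsp went from 4029 and 3487 to 4.2 and 11.5 (-6.57 ± 0.18), the cadherin Dsg2 changed by -6.56 and its partner Dsc2 by -4.49, while Pkp2 (-2.35), Pkp3 (-1.90) and Pkp1 (-1.86), plakophilins of the plaque, kept mean signals of 93.3 to 260 in M2. Jup, shared by desmosomes and adherens junctions, fell by 3.82. The membrane protease matriptase (St14, -5.44), its inhibitors Spint1 (-5.51) and Spint2 (-7.68 ± 0.18) and the protease gene Prss8 (-3.71) all fell, as did 6 of 7 polarity genes, with Lsr (-5.41) and Patj (-2.87) lowest. The 3 genes of the whole list that were not called were the nectin partner Afdn (-0.49), the polarity scaffold Scrib (-0.89) and Cldn8 (-0.97). The fall of Ctnnd1, p120-catenin (-1.16), was not called after quantile normalization (34 of 38 then fell).

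Promoters of junction genes are shown for the 4 of the 5 largest falls that the RefSeq promoter table holds (Epcam, Spint2, Cldn3 and Cldn7, the other being Dsp). Each run gives the 250 bases before the start, 5′ to 3′ on the gene's strand, on build GRCm38.p6: Epcam at chr17:87635729-87635978 (+), Spint2 at chr7:29281978-29282227 (-), Cldn3 at chr5:134985964-134986213 (+) and Cldn7 at chr11:69965171-69965420 (+). Capitals mark the E-box CACCTG on either strand (CAGGTG on the other), letters that Snai and Zeb factors are known to bind.
Epcam: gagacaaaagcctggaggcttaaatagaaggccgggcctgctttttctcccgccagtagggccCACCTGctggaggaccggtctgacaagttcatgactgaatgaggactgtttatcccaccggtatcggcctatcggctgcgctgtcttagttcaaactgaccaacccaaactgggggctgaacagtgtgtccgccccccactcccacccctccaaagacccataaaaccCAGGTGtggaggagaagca
Spint2: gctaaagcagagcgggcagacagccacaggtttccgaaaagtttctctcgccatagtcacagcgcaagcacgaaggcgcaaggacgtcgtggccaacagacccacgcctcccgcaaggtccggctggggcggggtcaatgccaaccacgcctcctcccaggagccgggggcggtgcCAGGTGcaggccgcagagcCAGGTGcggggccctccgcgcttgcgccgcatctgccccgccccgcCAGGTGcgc
Cldn3: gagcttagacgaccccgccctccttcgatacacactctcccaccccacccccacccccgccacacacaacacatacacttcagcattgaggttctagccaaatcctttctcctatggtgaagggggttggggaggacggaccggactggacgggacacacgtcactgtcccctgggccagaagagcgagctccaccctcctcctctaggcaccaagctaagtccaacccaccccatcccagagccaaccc
Cldn7: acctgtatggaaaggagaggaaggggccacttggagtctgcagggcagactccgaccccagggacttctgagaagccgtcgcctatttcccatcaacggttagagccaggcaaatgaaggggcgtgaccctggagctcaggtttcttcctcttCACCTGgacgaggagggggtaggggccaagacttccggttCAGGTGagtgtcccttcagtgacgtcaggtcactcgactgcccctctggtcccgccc
Epcam has 2 such matches, Spint2 3, Cldn3 0 and Cldn7 2, while a second annotated start of Cldn7 has 0. In windows of 300 bases (250 before to 50 after a start), 20 of 33 promoters of junction genes that fell held the letters (60.6%), over the 23 of those 35 genes in the table. Promoters of epithelial identity regulators that were called held them in 5 of 9 cases (55.6%), over the 7 of those 15 genes in the table. Of all 32851 promoters in that RefSeq set, 6640 held them (20.2%), and of the genes tested 2931 of 15126 (19.4%). Across genes that fell in M2 the share was 482 of 1914 (25.2%), across genes that rose 241 of 1342 (18%), and across called matrix genes 3 of 26 (11.5%). These shares are a description with no test, the lists were chosen with earlier results known, and several promoters belong to the same gene. Whether the letters have a part in any fall was not tested.

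Of 12 keratin and filament genes 4 fell, 1 rose and 7 were not called, and the partners Krt18 and Krt8 parted. Krt18 had signals of 12784 and 12439 in E and of 7.9 and 20.4 in M2 (-8.11 ± 0.17), and Krt7 fell by 7.19 ± 0.21. Krt8, the usual partner of Krt18 in simple epithelia, stood at 8477 and 7441 in E and at 8738 and 7155 in M2, a change of -0.01 ± 0.13 whose sign turned after quantile normalization (0.15). Its arrays overlapped between the lines on a bright signal, and 0 of its 3 probe sets were called. The stratified keratin gene Krt14 rose from 5.3 and 4.6 to 93.6 and 74.3 (1.65 ± 0.21), a low level, and was not called with values under 64 set to 64 (0.38). Krt23 fell (-1.56), a call also lost at that floor (-0.34), and of the other filaments the progenitor gene Nes fell by 2.00 and Vim stood at 9980 and 9308 in E and at 14239 and 13350 in M2 (0.52 ± 0.08). Vim, the filament by which mesenchymal cells are usually known, was thus higher on both M2 arrays by less than 2-fold, from a level in E that was already high.

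Regulators of epithelial identity fell in 15 of 17 cases and rose in 0, also at an unadjusted p under 0.05 in limma (median -1.91). Elf5, a factor of the secretory lineage, went from 5061 and 4838 to 3.5 and 1.0 (-7.18 ± 0.18), and Tfap2c, an AP-2 factor, from 4799 and 4443 to 8.4 and 11.4 (-6.79 ± 0.18). The splicing regulators Esrp1, from 1667 and 1458 to 1.0 and 0.7 (-5.60 ± 0.18), and Esrp2 (-4.05, 1 of its 2 probe sets) fell to background. Ehf (-4.05), Grhl2 (-3.98), Gata3 (-3.29) and Ovol2 (-2.85) fell too, whereas Klf5 kept a mean signal of 651 (-1.33) and Trps1 of 529 (-1.81). Not called were Tfap2a (-0.60) and Spdef, near background in both lines. After quantile normalization 13 fell, with Ovol1 (-1.21) and Grhl3 (-1.06) no longer called.

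Of 12 luminal and secretory genes 6 fell and 2 rose. Beside Wfdc18 the losses were of milk and defence products: Csn3 from 15600 and 15564 to 32.3 and 29.3 (-7.96 ± 0.16), lactoferrin (Ltf, -6.54), the antibody transporter Pigr (-4.72) and the casein gene Csn1s1 (-3.29). Lcn2, a siderophore-binding defence protein, lay at the limit (-1.04, not called after quantile normalization) and stayed bright at 6794 in M2. The 2 that rose were Xdh, xanthine dehydrogenase, from 135 and 170 to 1622 and 1181 (2.95 ± 0.16), and Esr1, the oestrogen receptor, from 6.4 and 1.9 to 262 and 233 (2.95 ± 0.17, 2 of its 3 probe sets). Secretory genes therefore did not move as a block, with Mfge8 at 6787 in E and 4335 in M2 (-0.65). Of 10 basal genes Mylk, myosin light chain kinase (3.21, 2 of its 3 probe sets), and Acta2, smooth muscle actin (1.14), rose and Lamb3, a laminin chain (-2.13), fell. The call of Acta2 was lost without E replicate 2 (0.85) or M2 replicate 1 (0.90). Itga6 (-0.68) and Itgb4 (0.17), whose products pair in hemidesmosomes, were not called.

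Notch genes fell in 7 of 14 cases and rose in 0 (3 were higher at an unadjusted p under 0.05, limma), with a median of -1.40. Notch is a receptor cut upon contact with ligands on a neighbouring cell, after which its inner part switches on Hes and Hey genes. The receptor gene Notch1 went from 1371 and 1344 to 82.3 and 73.6 (-3.66 ± 0.17) and Notch3 fell by 2.40. Of the ligands Dll1 fell from 3181 and 2420 to 266 and 241 (-3.30 ± 0.17) and Jag1 by 2.05. Thus 2 of 4 receptor genes and 2 of 4 ligand genes fell, and the others were not called. The 3 target genes that were bright in E fell furthest: Hey1, a repressor, from 2845 and 2451 to 4.4 and 5.6 (-6.17 ± 0.18), Hes1 from 3413 and 3110 to 59.4 and 48.5 (-5.26 ± 0.19), and the feedback gene Nrarp from 1785 and 1522 to 30.2 and 30.7 (-4.75 ± 0.18). Notch2 had a mean of 556 in E and 1002 in M2 (0.81, not called, and 1.08 and called after quantile normalization). Notch4 (0.95), Jag2 (0.56) and Mfng (0.13) were not called.

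**Figure D3:**
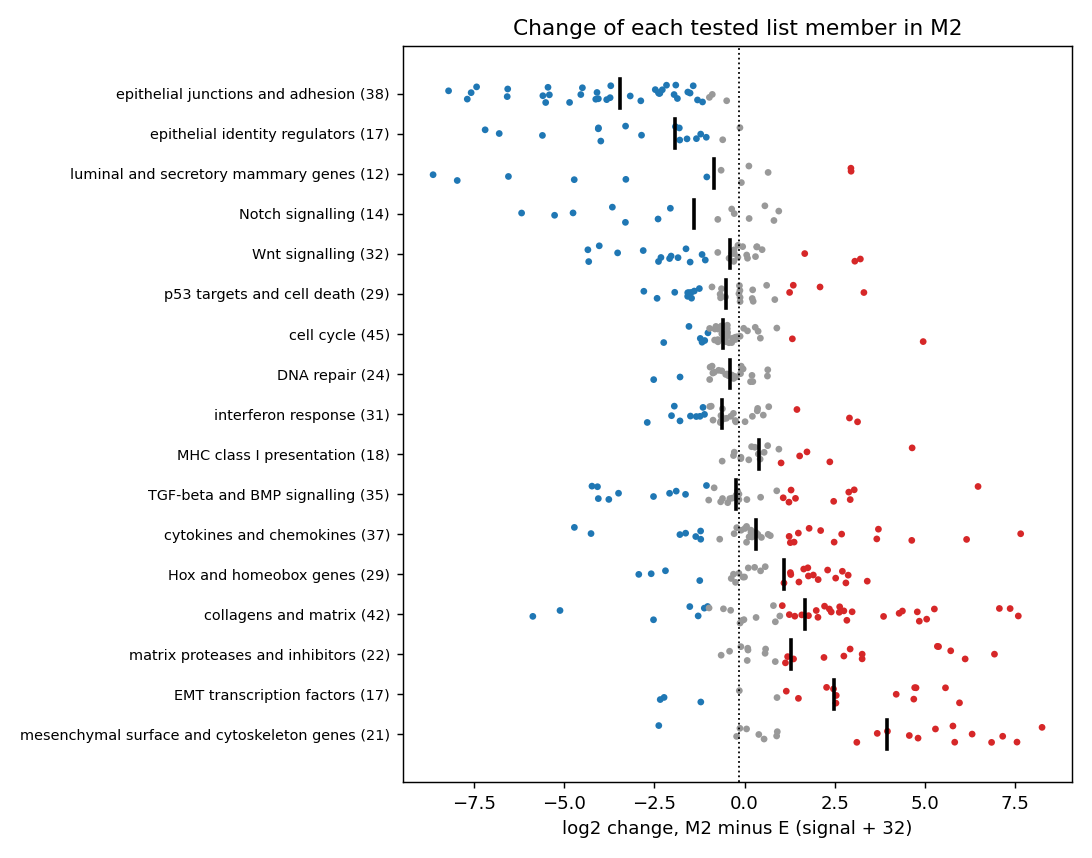
Change of every tested member of 17 gene lists, M2 minus E on the log2(signal + 32) scale, with the number of members in brackets. Red and blue points are members that rose and fell, grey points were not called, black bars are list medians and the dotted line is the median of all genes at -0.14. Junction genes lie to the left and mesenchymal surface genes to the right, while cell cycle and DNA repair genes crowd near the dotted line.

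The list of EMT factors and Id genes rose in 12 of 17 cases and fell in 3 (median 2.46). Of its 13 inducers of EMT 11 rose and 1 fell (median 2.54), and the Id genes are given below. Prrx2 and Prrx1, homeobox factors of mesenchyme, rose from 4.7 and 2.0 to 2423 and 1923 (5.96 ± 0.16) and from 9.9 and 13.8 to 1309 and 1006 (4.75 ± 0.16). Twist2 rose from 28.1 and 1.3 to 2250 and 1938 (5.57 ± 0.17). Snai2 rose from 2.8 and 8.8 to 1065 and 859 (4.71 ± 0.16), and Zeb1 from 7.1 and 15.0 to 1237 and 932 (4.69 ± 0.16, 2 of its 3 probe sets). These 5 factors were at background in E and at moderate signal on both M2 arrays.

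Their relatives stayed low. Zeb2 reached 194 and 120 in M2 (2.27 ± 0.18), Snai1 86.4 and 88.5 (1.49 ± 0.19) and Twist1 67.2 and 45.9 (1.16 ± 0.20). With values under 64 set to 64 Snai1 (0.45) and Twist1 (0.04) were not called, and Twist1 was lost with the larger pseudocount (0.75), without E replicate 2 (0.93) or without M2 replicate 1 (0.98). Foxf1 (4.20), Foxf2 (2.54) and Tcf4 (2.53) rose as well. The Id genes, whose products hold helix-loop-helix factors inactive, split: Id1 went from 6507 and 6009 to 1491 and 987 (-2.33 ± 0.15) and Id2 from 5353 and 5488 to 1201 and 1067 (-2.23 ± 0.15), while Id3 rose from a mean of 433 to 2525 (2.46). Snai3 fell (-1.21), a call lost after quantile normalization (-0.99), at the floor of 64 (-0.52) and with the larger pseudocount (-0.86).

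Mesenchymal surface and cytoskeleton genes rose in 13 of 21 cases and fell in 1 (median 3.96). Cdh2, N-cadherin, went from 9.5 and 5.8 to 1850 and 1241 (5.29 ± 0.17), opposite to Cdh1, while the other mesenchymal cadherin Cdh11 stayed at background (2.6 and 4.05). The receptor kinase Axl rose from 3.6 and 13.2 to 3625 and 2718 (6.30 ± 0.15), and Cd34, a sialomucin of progenitors and fibroblasts, from 1.2 and 0.5 to 4231 and 3307 (6.84 ± 0.14). Both PDGF receptors rose, Pdgfrb (5.82 ± 0.18) and Pdgfra (4.81 ± 0.16), as did the tropomyosin Tpm2 (5.77), Itga5 (3.11), the fibronectin receptor chain, and with Cav1 the coat protein gene Cavin1 (3.96). The integrin chain Itgb3 fell, from 147 and 133 to 1.5 and 0.8 (-2.38 ± 0.20, 1 of its 2 probe sets). Cd44 stood at 3123 and 2538 in E and at 5972 and 4607 in M2, a change of 0.89 ± 0.12 that was called after quantile normalization (1.13), median centring (1.11) and scaling to the hybridization controls (1.16).

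Matrix genes rose in 25 of 42 cases and fell in 7 (median 1.68). All 6 fibrillar collagen genes rose, Col3a1 (5.05), Col5a2 (4.84) and Col1a1 (4.37) most and Col1a2 least (1.59), from mean signals of 31.1 or less in E. Fn1, fibronectin, rose from 972 and 790 to 4090 and 3115 (1.99 ± 0.12), Sparc from a mean of 362 to 7614 (4.28) and Col8a1 from 37.9 and 38.4 to 3069 and 2295 (5.26 ± 0.15). Of 8 basement membrane genes 3 fell, 1 rose and 4 were not called (median -0.48). Col4a1 fell from 3396 and 3106 to 26.6 and 22.1 (-5.86 ± 0.17) and Col4a2 by 5.11, while Col4a5 rose (2.62). Interstitial collagens and the main collagen IV pair thus moved in opposite directions in M2. Ccn2, a target of TGF-beta and of YAP (-2.52), Mgp (-1.52), Loxl3 (-1.28), Tnc (-1.11) and Lama5 (-1.02) fell also, the last pair not after quantile normalization. Of the cross-linking genes Lox rose from 12.2 and 1.1 to 6886 and 5658 (7.36 ± 0.14, 2 of its 3 probe sets) and Loxl1 by 2.83.

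Of 22 matrix proteases and inhibitors 13 rose and 0 fell (median 1.28), and 2 were lower at an unadjusted p under 0.05 (limma). The collagenase Mmp13 went from 5.1 and 13.8 to 5771 and 4286 (6.92 ± 0.16), the stromelysins Mmp10 from 19.2 and 2.5 to 3011 and 2744 (6.11 ± 0.16) and Mmp3 from 96.7 and 80.3 to 6759 and 5817 (5.71 ± 0.15). Their inhibitors rose beside them, Timp3 (5.38 ± 0.18), Timp1 (5.34 ± 0.14) and Timp2, from a mean of 1161 to 8004 (2.75). Mmp14, the membrane-bound activator of Mmp2, rose by 3.26, whereas Mmp2 itself had means of 844 and 896 (0.07, not called). The activator of plasminogen Plat rose (3.26), and Plau (0.10) and its receptor Plaur (-0.41) were not called.

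ERBB genes were examined because E comes from a mouse that carries the neu transgene. Of 17 genes 4 fell and 3 rose (median -0.22), beside 11.8% lower and 8.58% higher among all genes. Erbb3, the partner that lets neu signal to PI3K, went from 3622 and 3402 to 109 and 79.2 (-4.82 ± 0.17, 1 of its 2 probe sets). Tgfa (-4.64), the adaptor Grb7 (-3.31), which lies beside Erbb2 in the genome, and Hbegf (-1.78) fell. Erbb2 stood at 315 and 321 in E and at 159 and 139 in M2, a change of -0.95 ± 0.17 just short of the fold limit. It was called with the smaller pseudocount (-1.06), with values under 64 set to 64 (-1.10) and without M2 replicate 1 (-1.03), and changed by -0.71 after quantile normalization. Whether this mouse probe set also reads the rat transgene was not tested. The ligands Ereg, from 422 and 338 to 2289 and 1705 (2.29 ± 0.15), and Nrg1 (1.69) and the receptor inhibitor Lrig1 (1.17) rose. The call of Lrig1 was lost with the mean of its probe sets (0.45) and without M2 replicate 1 (0.92).

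Among 31 other receptor kinases and ligands 8 rose and 6 fell. Kit, the stem cell factor receptor, fell from 1532 and 1221 to 11.2 and 2.7 (-5.18 ± 0.19), while its ligand Kitl rose (2.71). The growth factor Fgf7, made by mesenchyme and read by epithelial Fgfr2, rose from 15.5 and 11.5 to 4627 and 3708 (6.52 ± 0.14), while Fgfr2 fell (-1.71). In both pairs the ligand was higher and the receptor lower in M2. The collagen receptor Ddr2 rose (4.63) and its epithelial relative Ddr1 fell (-1.30). Among vessel and platelet growth factors Vegfc (3.49), Vegfd (2.46) and Vegfa (1.20) rose, and Pdgfc (-4.09) and Pdgfb (-1.75) fell.

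Of 35 TGF-beta and BMP genes 9 rose and 10 fell (median -0.23). TGF-beta, a growth inhibitor of epithelium and known inducer of EMT, has 3 ligand genes, which split: Tgfb2 fell from 1051 and 934 to 27.0 and 32.6 (-4.05 ± 0.17) and Tgfb3 fell (-3.49), while Tgfb1 rose from a mean of 60.9 to 660 (2.89). Of the activin genes Inhbb fell (-4.23 ± 0.18) and Inhba rose (3.04). Of 11 feedback and inhibitor genes 4 fell, Bambi (-4.07), Pmepa1 from 4157 and 3657 to 299 and 223 (-3.76 ± 0.16), Smad6 (-2.08) and Skil (-1.63). Another 2 rose, the activin antagonist Fst (2.47) and Ltbp1 (1.29), which binds latent TGF-beta, and 5 were not called. Tgfbi, a secreted matrix protein named for its induction by TGF-beta, rose from 8.3 and 3.1 to 3743 and 2910 (6.47 ± 0.15). The receptor genes Tgfbr3 (1.41), Acvr1 (1.23) and Tgfbr1 (1.07) rose. The 6 Smad transducers were not called, with changes from -0.66 (Smad3) to 0.89 (Smad1, called after quantile normalization).

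Wnt genes fell in 14 of 32 cases and rose in 3. The 3 that rose were ligands, Wnt10a (3.21 ± 0.17), Wnt5a (3.06 ± 0.18, 3 of its 4 probe sets) and Wnt6 (1.67, 1 of its 2 probe sets). The ligands Wnt7b, from 1981 and 1723 to 72.0 and 50.9 (-4.34 ± 0.19), and Wnt5b (-2.81) fell. Of 10 receptor genes 7 fell, Fzd5 most (-3.52 ± 0.17, 1 of its 2 probe sets), followed by Fzd3 (-2.38) and Fzd1 (-2.31). The secreted inhibitors Wif1, from 685 and 547 to 0.2 and 0.5 (-4.32 ± 0.19), and Sfrp1 (-4.02) fell to background. Of 8 transducers and targets 3 fell, Lgr4, a receptor for R-spondins (-2.08), the transcription factor Tcf7l1 (-2.03) and the target Ccnd1 (-1.18), and 0 rose. Genes that fell were thus found in every role of the list and genes that rose among the ligands. Beta-catenin (Ctnnb1, -0.35) and the target Axin2 (0.34) were not called.

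Of 37 cytokine and chemokine genes 13 rose and 7 fell (median 0.31). Next to Ptgs2, the monocyte attractants Ccl7, from 37.9 and 31.0 to 4926 and 4463 (6.15 ± 0.14), and Ccl2, from 316 and 304 to 8496 and 8418 (4.63 ± 0.11), rose most, with the neutrophil attractant Cxcl5 from a mean of 627 to 8589 (3.71) and Cxcl16 (3.66). Ccl20, an attractant of dendritic cells and lymphocytes, fell from 996 and 950 to 4.3 and 8.4 (-4.71 ± 0.17). Interleukin-1 genes changed on both sides, since the agonist Il1a rose (2.69) and the antagonist Il1rn fell from 906 and 873 to 20.4 and 12.6 (-4.25 ± 0.17). Among growth cytokines Csf1 rose (1.79) while Csf3 (-1.63) and Lif (-1.79) fell, and Il6 stayed near background (17.8 and 37.0).

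Class I antigen presentation genes rose in 5 of 18 cases and fell in 0 (median 0.41), and 2 were lower at an unadjusted p under 0.05 (limma). Psmb8, a catalytic subunit of the immunoproteasome, went from 10.6 and 10.9 to 1213 and 885 (4.64 ± 0.16), the class I-like gene H2-M3 rose by 2.36, the regulator Nlrc5 by 1.73 and Psmb9 by 1.53. H2-D1 lay at the fold limit (1.01) and was lost without E replicate 2 (0.89) or M2 replicate 1 (0.94). Of its 7 probe sets 3 were called, and class I genes are near-identical in sequence. Tap1 (-0.30), Tap2 (0.54) and B2m (0.43), needed to load and display peptides, were not called. Of 31 interferon genes 9 fell and 3 rose (median -0.61). The factors Irf9 (-2.02), Irf7 (-1.95) and Irf8 (-1.79) and the effector Rtp4, from 2823 and 2664 to 479 and 328 (-2.69 ± 0.17), fell, while the interferon-induced GTPase genes Ifi47 (3.13) and Gbp2 (2.91) and Ifit2 (1.45) rose. Of 12 immune evasion genes the checkpoint ligand Vtcn1 fell (-2.34), Cd200 fell on the deposited scale (-1.08, and -0.83 after quantile normalization, not called; also lost without M2 replicate 2 at -0.97), and 0 rose. After quantile normalization 1 rose, the enzyme gene Nt5e (0.91 as deposited and 1.11 so normalized), which makes adenosine outside cells, and 1 fell. The checkpoint ligand Cd274 stayed near background at 4.7 and 28.5, and 5 of the 12 were higher at an unadjusted p under 0.05 (limma). Over all genes 8.58% rose and 11.8% fell on the deposited scale.

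Of 45 cell cycle genes 6 fell, 2 rose and 37 were not called, beside 20.4% called among all genes. The median was -0.58, and 34 were lower and 6 higher at an unadjusted p under 0.05 (limma). Of all 14840 genes, 4833 were lower and 2688 higher at an adjusted p under 0.05 without the fold limit (limma). After quantile normalization the median was -0.34, 4 fell and 3 rose. Mki67, a marker of cycling cells, fell from 3387 and 3045 to 1665 and 1102 (-1.22 ± 0.16), a call lost with scaling to the hybridization controls (-0.95) and without M2 replicate 2 (-0.93). Cdk1 (-0.21), Top2a (0.08) and Birc5 (0.38) were not called. Of the D cyclins Ccnd2 rose from 50.4 and 30.4 to 2303 and 2068 (4.95 ± 0.15) on all 7 probe sets and Ccnd1 fell but kept a clear signal, from a mean of 10510 to 4662 (-1.18). The inhibitor of cyclin-dependent kinases Cdkn1b, p27, fell from 842 and 997 to 197 and 145 (-2.24 ± 0.17, 1 of its 2 probe sets), Cdkn2b rose (1.32) and Cdkn2a fell (-1.54), the last not at a floor of 64 (-0.32).

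Several of these genes had a higher signal in M2 than in the mean of the other relapse lines. In M2 minus the mean of M1, M3 and M4, a contrast that uses no E array, 12 of the 45 cell cycle genes were higher and the others were not called, where 1.95% of all genes were higher and 0.532% lower. The arrays of M3 and M4 were dimmer (trimmed means of 181 to 200), the middle gene lay 0.12 higher in M2 than in the other lines, and the part of brightness in these calls was not tested beyond quantile normalization. After quantile normalization 7 were higher (1.11% of all genes) and the middle gene lay at -0.01. Top2a, the topoisomerase of dividing cells (1.36 ± 0.11), the kinesin Kif11 (1.32), the survivin gene Birc5 (1.26) and the helicase subunit Mcm5 (1.26) differed most, and Rrm2, Ccne2, Kif20a, Mki67, Bub1, Ccnb2, Mcm4 and Mcm6 were the others. Of the 13 mitosis genes 7 were among them. All 12 were called higher than M3, the line in which they were lowest, and 0 of the 12 were called against M1 or against M4. Mki67 had means of 1383 in M2, 1704 in M1, 102 in M3 and 955 in M4, so that M2 lay at -0.32 from M1, 3.37 from M3 and 0.49 from M4. Over all genes the count of 289 higher genes fell to 175 without M2 replicate 1 and went to 500 without M2 replicate 2.

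**Figure D4:**
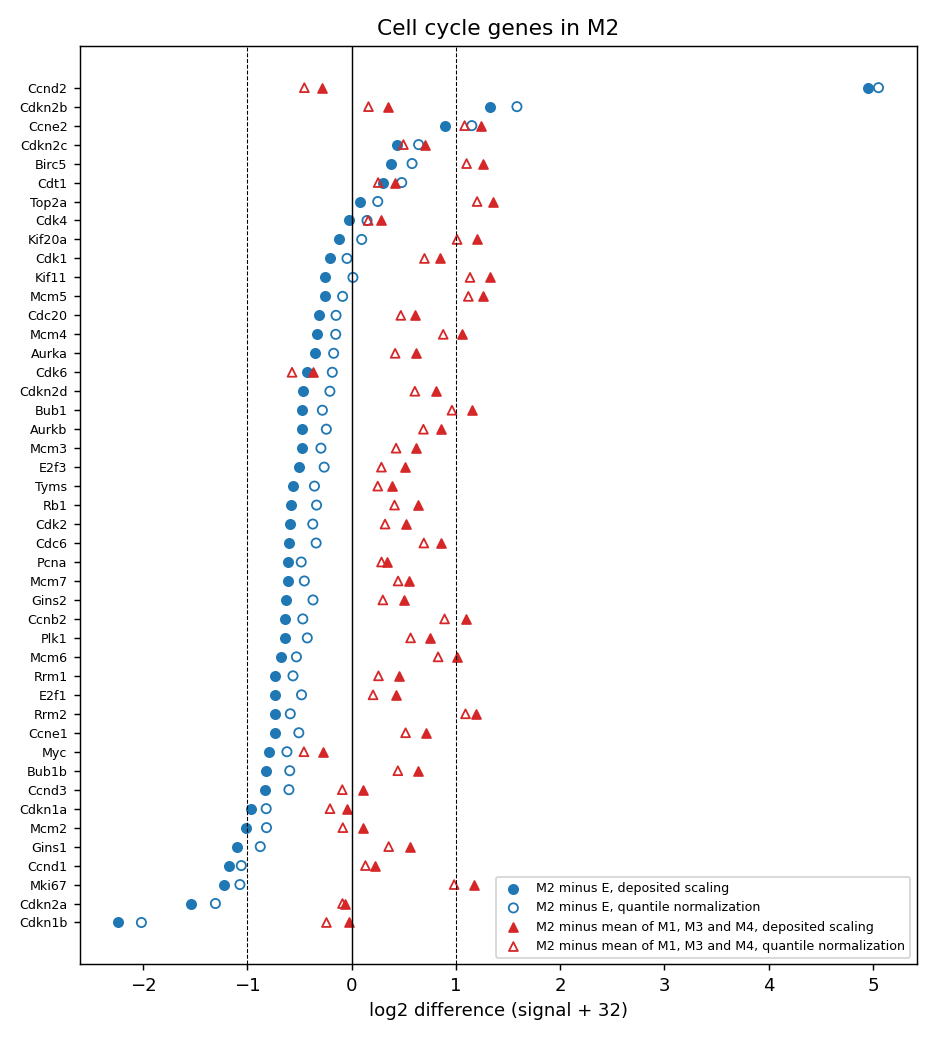
Difference of each of 45 cell cycle genes in M2 from E (circles) and from the mean of the other relapse lines (triangles), on the deposited scale (filled) and after quantile normalization (open), in log2 units. Most circles lie between 0 and -1 and most triangles above 0, with the dashed lines marking 2-fold.

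Genes of p53 response and cell death fell in 10 of 29 cases and rose in 4 (median -0.53), beside 11.8% lower and 8.58% higher among all genes. Of the p53 targets Btg2, an antiproliferative gene (-1.93), Bbc3 (-1.57), Ei24 (-1.57), Perp (-1.54), Zmat3 (-1.39) and Gadd45a (-1.25) fell, 6 of 12 in all, while Mdm2 (-0.14) and Ccng1 (-0.66) were not called. Bcl2, which restrains apoptosis, fell from 527 and 468 to 58.4 and 32.7 (-2.79 ± 0.19), and the death-promoting relative Bik by 2.42. Survival and death members of the BCL2 family thus both fell. The 4 that rose were the death receptor Fas, from 144 and 144 to 798 and 649 (2.09 ± 0.16), the inhibitor of apoptosis Birc3 (3.31, 1 of its 2 probe sets), Casp12 (1.35) and Casp1 (1.25). Of 24 DNA repair genes the excision nuclease subunit Ercc1 (-2.52 ± 0.15, 2 of its 3 probe sets) and the ligase Lig3 (-1.79) fell. Of the others 0 rose and 22 were not called, where 11.8% of all genes fell and 8.58% rose. At an unadjusted p under 0.05 in limma, 2 of the 24 were higher and 13 lower.

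Stem and progenitor markers fell in 10 of 19 cases and rose in 2. Sox10, a factor of mammary progenitors, went from 3544 and 3172 to 17.9 and 11.2 (-6.19 ± 0.18), and Cd24a, a surface marker of luminal cells, from 7151 and 7056 to 240 and 184 (-4.88 ± 0.17). Prom1 (-4.42) and Cd14 (-3.84) fell too. Klf4, a factor of stem cell reprogramming, rose from 11.4 and 13.4 to 2102 and 1318 (5.26 ± 0.16), and Procr, the protein C receptor, from 8.0 and 18.2 to 1191 and 888 (4.57 ± 0.17). Of 13 efflux transporters 4 rose, Abcc4 from 4.0 and 2.0 to 1506 and 980 (5.16 ± 0.17), the P-glycoprotein genes Abcb1b (3.60, 1 of its 2 probe sets) and Abcb1a (1.62), and Abcc5 (1.84, 5 of its 8 probe sets). The 3 that fell were Abcg2 from 1994 and 1796 to 26.3 and 13.9 (-5.22 ± 0.17), Abca3 (-1.97) and Abca2 (-1.15), the last not after quantile normalization (-0.94), with the larger pseudocount (-0.91) or without M2 replicate 2 (-0.75).

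In glycolysis and hypoxia 5 of 25 genes rose and 5 fell. Enzyme genes that fell were Aldoc, an aldolase, from a mean of 6463 to 53.9 (-6.24 ± 0.17), the phosphofructokinases Pfkp (-2.77) and Pfkl (-2.09) and the hexokinase Hk1 (-1.45), whereas the enolase Eno2 rose (2.31). The hypoxia-linked genes Ndrg1, from a mean of 9.95 to 889 (4.47 ± 0.17), Adm (3.69), Bnip3 (1.63) and Vegfa rose and the factor Epas1 fell (-1.83). Ldha (-0.25), Pgk1 (-0.12) and Slc2a1 (0.23), the core of hypoxic glycolysis, were not called, so the list moved gene by gene and not as a whole.

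Homeobox and T-box genes rose in 15 of 29 cases and fell in 4 (median 1.09). Hox genes give cells their place along the body axis, and 10 of 20 tested rose: Hoxa9 went from 2.8 and 2.5 to 368 and 303 (3.40 ± 0.17), Hoxb3 from 3.7 and 15.2 to 297 and 243 (2.87 ± 0.18) and Hoxc9 from 17.5 and 11.3 to 298 and 247 (2.71 ± 0.17). Hoxa5 fell from 1169 and 1068 to 158 and 87.6 (-2.93 ± 0.18), with Hoxa3 (-2.58) and Hoxa2 (-1.24). Within the Hoxa cluster the genes at one end (Hoxa2, Hoxa3, Hoxa5) were thus lower and those toward the other (Hoxa9, Hoxa10 at 1.75) higher in M2, and 5 of 7 tested Hoxb genes rose. The T-box genes Tbx3 (2.81, 3 of its 4 probe sets) and Tbx2 (-2.19) parted. Signals were low throughout: 12 of the 29 had a mean above 100 in M2, and 9 rose with values under 64 set to 64.

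Markers of other cell types were examined, since a culture from a tumour can carry host cells. The array held 16 leukocyte, 11 endothelial, 7 adipocyte and 9 skeletal muscle markers, and the counts below are of those with enough signal to be tested. Of 14 leukocyte markers Itgb2, an integrin chain (3.14), and Coro1a (1.68, 1 of its 2 probe sets) rose and 0 fell, also at an unadjusted p under 0.05 in limma, and the pan-leukocyte gene Ptprc stayed at 6.45 and 15.1. The summed signal of the 14 was 398 and 382 in E and 838 and 747 in M2, and 1 of them had a mean above 100 in M2. Their part in the results on cytokine and interferon genes was not tested, and in bulk cultures fewer cells of a type and less RNA per cell cannot be told apart. Coro1a was not called at a floor of 64 (0.33) or with the mean of probe sets (0.97). Of 7 endothelial markers Cdh5 rose to a mean signal of 50.4 (1.09), a call lost at a floor of 64 (0.00), with the larger pseudocount (0.69), with the mean of probe sets (0.51) and without E replicate 2 (0.96), and Kdr stayed at 18.3. Of 3 adipocyte markers Slc2a4 fell (-1.28), a call lost at the floor (-0.64), with the larger pseudocount (-0.92) and without M2 replicate 1 (-0.93), and of 6 skeletal muscle markers 0 were called (1 higher and 1 lower at an unadjusted p under 0.05, limma).

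Of 13 fibroblast markers on the array 9 had enough signal to be tested, while Mfap4, Dpt, Clec3b and Fap did not. Of the 9, 6 rose and 0 fell, also at an unadjusted p under 0.05 (limma). The summed signal of the 9 went from 442 and 327 in E to 20160 and 16856 in M2, mostly Dcn, Gsn (4.27 ± 0.13, 4 of its 5 probe sets) and the PDGF receptors, and Mfap5 (2.83, 1 of its 2 probe sets) and Pi16 (1.71) rose too. Lum (12.2 in M2), Fbln1 (33.8) and Dpp4 (12.6) stayed near background. Host fibroblasts in the culture and expression by the line's own cells cannot be told apart here.

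Genes by which M2 stood apart from each of the other relapse lines were sought with the pairwise contrasts M2 minus M1, minus M3 and minus M4. M2 was called higher than all 3 for 60 genes (0.404% of 14840) and lower than all 3 for 2 (0.0135%; 0.418% in both directions), Hk2 and the cystine transporter gene Slc7a11, the latter named after its values were seen. After quantile normalization 36 (0.243%) and 9 (0.0606%) were, together 0.303%. Of the 60 genes, 41 were also higher than in E, 11 were lower than in E and 8 were not called against E. Of the 41, 24 kept all of these calls after quantile normalization, and 0 genes were lower than in E and lower than in each other line.

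The 10 largest of the 41 were led by Cck, cholecystokinin, a peptide hormone of gut and brain. Its signals were 4667 and 3854 in M2, 1.0 and 15.6 in E, and 14.5 (M1), 140 (M3) and 99.7 (M4) on average in the others, a difference of 5.40 ± 0.15 between M2 and the mean of the other 3 relapse lines. Slc14a1, a urea transporter, had signals of 1407 and 1020 in M2 and at most a mean of 14.7 elsewhere (4.93 ± 0.15). Padi4, which converts arginine to citrulline in proteins, stood at 765 and 555 in M2, 141 and 88.0 in E and 183 in M3, and at 1.65 in both M1 and M4 (3.45 ± 0.15). Cck and Slc14a1 were thus near background in E and well above it on both M2 arrays.

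The others differed less. Slfn4, an interferon-linked gene of myeloid cells, reached 335 and 273 in M2 (2.85), and Aldh3a1 stood at 5389 and 4229 there against means of 488 (M1), 535 (M3) and 1058 (M4) (2.81). Tafa5 (2.63), Syce2 (2.36), Olfm1 (2.30), Prxl2a (2.18) and Fyb (2.13), an adaptor of T cells and platelets, completed the 10. Against E, Aldh3a1 rose by 6.89, Cck by 6.75, Olfm1 by 5.62, Slc14a1 by 5.14, Tafa5 by 4.08, Syce2 by 3.85, Fyb by 2.93, Slfn4 by 2.46, Padi4 by 2.25 and Prxl2a by 1.01. Prxl2a was at the limit, lost with the larger pseudocount (0.93) and without M2 replicate 1 (0.82), and Prxl2a, Syce2 and Olfm1 did not differ from each other relapse line after quantile normalization.

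Among list members M2 differed from each of M1, M3 and M4 for 8 genes. Pdgfrb had signals of 2461 and 1476 in M2 and means of 390 (M1), 450 (M3) and 633 (M4), and Mmp10 of 3011 and 2744 against means of 661, 1280 and 1038. Col6a2, a collagen VI chain, and Krt14 were higher in M2 as well. In 3 genes M2 lay between E and the other lines: Cd24a, at means of 7104 in E, 212 in M2 and 69.6, 19.5 and 25.5 in M1, M3 and M4, Cldn1, at 577 in E, 199 in M2 and at most 57.1 elsewhere, and Lamb3, at 798 in E, 155 in M2 and at most 47.6 elsewhere. These 3 epithelial genes fell in M2 less than in each other relapse line. Hk2, a hexokinase, was lower in M2 than in each other line, with a mean of 367 against 719 in E. After quantile normalization 6 of the 8 still differed from each other relapse line, and Mmp10 and Col6a2 did not.

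**Figure D5:**
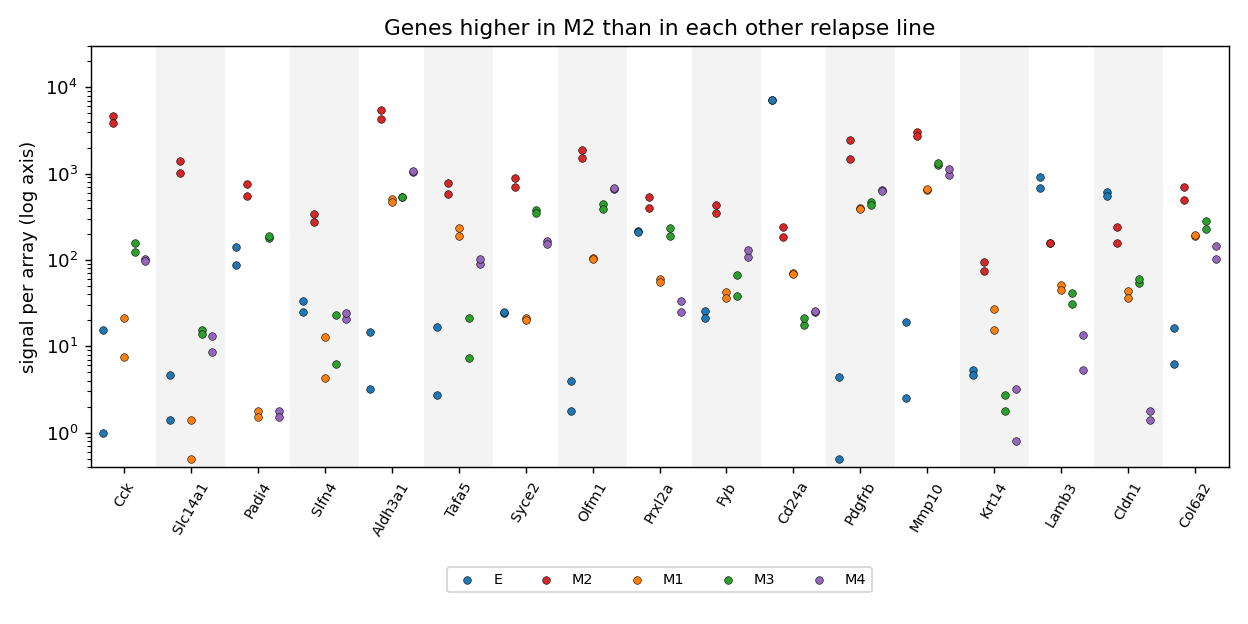
Signal on all 10 arrays, on a log axis, for 17 genes that were higher in M2 than in each of M1, M3 and M4 on the deposited scale. For Cck and Slc14a1 the M2 arrays lie more than 10-fold above all other arrays, and for Cd24a, Lamb3 and Cldn1 they lie between E and the other relapse lines; values under 0.5 are drawn at 0.5.

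Genes with several probe sets gave a measure of how far a call rests on the chosen one. Of 671 genes that rose and had several probe sets, 277 had all of them called, and of 981 that fell 417 did, and 1 and 2 of these genes had a probe set called in the opposite direction. Among the 168 called genes of the naming rule 95 had several probe sets, 64 with all called, 31 with some not called and 0 with an opposite call. Called on part of their probe sets were Bcl2 (4 of 5), Lig3 (4 of 5), Zeb2 (3 of 4) and Cdh5 (1 of 2). Krt14, Lrig1, Nes and Tgfa were called on 2 of 3 probe sets each, and the others are marked where they are named.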

How the data were processed

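The authors' deposited values are probe set intensity signals on a linear scale, and the submitters' processing notes name GCOS 1.3 without its role. For the signal algorithm and scaling target no source used here gives a value. Of 45101 probe sets, 64 are controls, 34945 carried 1 gene symbol, 932 several and 9160 none. A probe set was kept if it exceeded the array's 40th percentile on at least 2 of the 10 arrays, and a gene (14840 in all) was read from its kept probe set of highest mean signal. Deposited signals were turned into log2(signal + 32) and fitted with 1 mean per line in limma 3.58.1 (R 4.3.3), with moderated variances and a trend, and p-values were adjusted over all genes by Benjamini-Hochberg. Residual degrees of freedom were 5, and the number of arrays limits the precision. The fitting steps were tested on simulated data.

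The genes named are markers, the 12 largest changes each way, the 10 largest signal differences each way, up to 5 called members of each of 30 lists with members that went against the rest, and up to 10 genes by which M2 differed from E and from each other relapse line. Further list members are given as values. The comparison and lists were chosen with earlier results of these data known. Deviations of same-numbered arrays of M2 and E correlated at 0.056 across genes, a measure that misses a shift shared by all genes. Replicate 1 was the brighter array in both lines (trimmed means of 299 and 264 in E, 272 and 214 in M2). Whether replicate numbers pair the arrays cannot be decided from this. Alternatives were other scalings, pseudocounts of 8 and 64, a floor of 64, no filter, the mean of probe sets, no variance trend, no fold minimum, only the compared arrays, a replicate block and leaving out each array. Promoter sequences are from RefSeq on GRCm38.p6.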

Additional observations from a re-analysis of the deposited data

Results flagged for a closer look

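For 18 named genes M2 differed from each of M1, M3 and M4 by the tested pairwise contrasts, and the difference from their mean is given here on the log2(signal + 32) scale. Among genes that also rose against E, Cck differed by 5.40, Slc14a1 by 4.93, Padi4 by 3.45, Slfn4 by 2.85, Aldh3a1 by 2.81, Tafa5 by 2.63, Syce2 by 2.37, Olfm1 by 2.30, Prxl2a by 2.18 and Fyb by 2.13. Among members of the gene lists that were higher in M2, the receptor gene Pdgfrb differed by 1.92, the protease gene Mmp10 by 1.55, the keratin gene Krt14 by 1.55 and the collagen gene Col6a2 by 1.53. The epithelial genes Cldn1 (1.92), Cd24a (1.86) and Lamb3 (1.63) were higher than in the other relapse lines although they fell against E. The hexokinase gene Hk2 was lower by -1.18. After quantile normalization Mmp10, Col6a2, Prxl2a, Syce2 and Olfm1 no longer differed from each of the 3 lines, while the other 13 did. No explanation was tested.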

How the results depend on the processing

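Without the fold minimum 7521 genes were called between M2 and E, 2688 higher and 4833 lower. The other alternatives kept these 3 counts within 1.5 times, and leaving out 1 array gave 2953 to 3340. Of calls 42.2% were higher in M2 as deposited, 53.5% after quantile normalization and 55.1% with median centring or hybridization control scaling. For M2 minus the mean of M1, M3 and M4, calls numbered 694 with a pseudocount of 8 (515 higher, 179 lower), 231 with 64 (180 and 51) and 3937 without the fold minimum (3338 and 599). There, quantile normalization gave 165 higher and 122 lower, and median centring 139 and 152. Leaving out 1 array gave 270 to 569 in all, 175 to 500 higher and 69 to 95 lower. Krt8 turned sign with quantile normalization (0.15), median centring (0.21), hybridization control scaling (0.27), without E replicate 1 (0.09) and without M2 replicate 2 (0.14), with a range from -0.15 to 0.14 over single arrays left out, and the cause was not tested. The replicate block left 3022 and 368 calls. With 1 array of each number in every line it cannot move a log2 change, so the unchanged counts are no check. With 2 arrays a line and signals near background on 1 side, fold sizes of the largest changes are limited by the pseudocount.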
